A study of Caenorhabditis elegans with 12 samples.

Results

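The change shared by 2 let-7 microRNA mutants of the nematode Caenorhabditis elegans was measured by ribosome profiling. Ribo-seq sequences the stretches of mRNA that ribosomes protect from nuclease, so a gene's count follows both its mRNA level and how heavily that mRNA is translated, and these counts alone cannot tell the 2 apart. All 12 of the 12 libraries of the series entered the contrast, 6 from mutants and 6 from controls, with 3 libraries (A, B and C) in each of 4 strains. The strains form 2 pairs, each mutant with its own control, and the counts of each pair came in a table of its own. In the U13A pair the control is DG3913, genotype lin-41(tn1541), and the mutant is VT3878, genotype lin-41(tn1541ma480);let-7(ma432). In the U18A pair the control is VT1367, genotype maIs105, and the mutant is VT3797, genotype maIs105;let-7(ma435). U13A and U18A name the base of the mature let-7 that is changed, counted from its 5′ end. All libraries came from whole worms at mid L4, the last larval stage, grown at 20 °C and collected 45 h after feeding.

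Several features limit the strains as models. The tn1541 allele, a GFP tag at lin-41, is carried by both U13A-pair strains, while ma480, a further change at lin-41, is carried by the U13A mutant and not by its control. The labels describe that mutant as having the downstream effect through lin-41 excluded, so its contrast is of both changes together. The maIs105 insertion, an adult collagen col-19::gfp reporter, is in both U18A-pair strains. Neither control lacks every modification, and nothing in the labels says whether the 3 libraries of a strain came from separate cultures, so p-values measure only the spread between these libraries.

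Let-7 is a small regulatory RNA that rises in late larvae and pairs with sites in the 3′ ends of mRNAs, lowering the output of its targets. Its best known target in worms is lin-41, an RNA-binding TRIM-NHL protein that keeps epidermal cells in a larval state and also acts in the growth of oocytes. Loss of let-7 makes the epidermal seam cells repeat larval divisions and delays the adult cuticle. Mutations outside the seed, at the 3′ part of the microRNA, address how far pairing there matters in the animal.

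Genes were tested in 1 model with a term for the pair, so that each mutant was set against its own control, on 13597 genes that passed a filter on low counts. Of these, 970 (7.13%) had a common change in edgeR's quasi-likelihood test (adjusted p below 0.05). Footprints of 418 genes (3.07%) were higher in the mutants and of 552 (4.06%) lower, and 966 of the 970 (7.1% of all tested) had 1 sign in both pairs. Libraries of mutant and control did not overlap in either pair for 533 of these 966 (3.92%), of which 298 were lower (2.19%) and the rest higher (1.73%). Without library B of the U18A control the calls numbered 633, with 269 higher and 364 lower, and without library B of the U18A mutant 365 were lower. A stricter set had to be called in the common test and again in each pair by itself with the same sign. It held 154 genes (1.13%), 69 of them higher (0.507%) and 85 lower (0.625%). That count was 59 without library A of the U13A mutant, 73 without library B of the U13A control and 94 without library B of the U13A mutant. Its higher genes then numbered from 30 (without U13A mutant A) to 117 (without U13A control A), with 36 and 41 without U13A controls B and C. Its lower genes numbered from 29 (without U13A mutant A) to 136 (without U13A mutant C), with 37 without U13A control B and 38 without U13A mutant B. The normalised counts of 153 of the 154 (68 higher, 0.5%, and 85 lower) did not overlap between mutant and control libraries in either pair.

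Total counts per library ran from 8405704 to 44950649. The U13A mutant was sequenced more deeply than its control, and the U18A mutant less deeply. In a principal component analysis of all genes tested the first component (42.4% of the variance) separated the 2 pairs. The second (15.8%) put the 6 mutant libraries from -26.1 to -6.23 and the 6 control libraries from 7.25 upward. The row of let-7 itself held 0 counts in all 12 libraries, so it is no check of the genotypes.

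**Figure D1:**
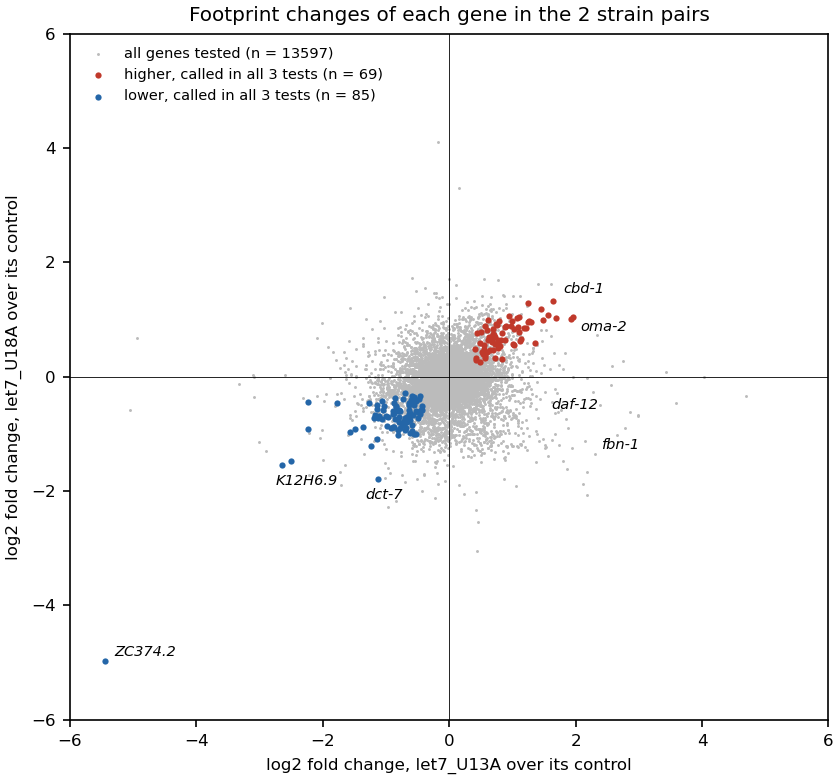
Each point is 1 of 13597 genes, with the log2 fold change of mutant over control in the U13A pair on the horizontal axis and in the U18A pair on the vertical axis. Red points (69) and blue points (85) are genes called higher or lower in the common test and in each pair, and 3 genes lie beyond the axes. The coloured points lie in the upper right and lower left quadrants, as their rule requires. The genes fbn-1 and daf-12, in grey, lie in the lower right, and ZC374.2 stands apart at -5.45 and -4.98.

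Genes of the growing oocyte and its eggshell led the shared rises, with 7 of the 15 largest belonging to the oocyte list. Oocytes form in the proximal gonad arm as the animal becomes adult, take up yolk through the receptor RME-2, hold their mRNAs under the control of RNA-binding proteins, and secrete a chitin and proteoglycan shell after fertilisation. Like the yolk, adult collagen and other lists, the oocyte list was drawn up with earlier results of these data known. Its counts beside those of all genes are therefore a description and not a test. It held 18 genes, all tested. Footprints of 13 were called higher in the common test against 3.07% of all genes, none was lower, and 10 were called higher in both pairs as well. The median log2 change of the 18 was 0.81, with 0.67 for U13A and 0.89 for U18A, where the medians of all genes were -0.0034 and -0.0048. Tested by pair, 10 were called higher with U13A (3.01% of all genes were) and 15 with U18A (4.06%). In whole animals fewer cells of a type and less RNA per cell cannot be told apart, nor can more cells and more RNA per cell. With any 1 library left out, 13 or 14 of the 18 were called higher in the common test.

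The largest rise by the smaller of its changes in the pairs was that of cbd-1 (chromosome IV, 11372991 to 11377627 of WBcel235), which encodes a chitin-binding protein of the eggshell's outer layer. In the U13A pair, its normalised counts in the 3 control libraries were 24.9, 19.5 and 13.3 CPM, and in the 3 mutant libraries 69.7, 43.1 and 67.7 CPM. Those of the U18A pair held 59.5, 66.3 and 99.96 CPM in the controls and 221, 176 and 170.3 CPM in the mutants. Every mutant library lay above every control library of its pair, and the common change was a log2 change of 1.48 (SE 0.19, edgeR adjusted p = 0.00119). The change was 1.65 for U13A against 1.32 for U18A.

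The eggshell proteoglycan gene cpg-1 (chromosome III, 4489359 to 4491392) was also higher in both mutants. In the U13A pair, its normalised counts in the 3 control libraries were 22.1, 22.05 and 14.2 CPM, and in the 3 mutant libraries 57.9, 43.4 and 70.7 CPM. Those of the U18A pair held 56.8, 70.3 and 92.2 CPM in the controls and 169.6, 146 and 153 CPM in the mutants. No mutant library reached down to a control library, and the common change was a log2 change of 1.31 (SE 0.17, edgeR adjusted p = 0.00103). Its partner cpg-2, a second chondroitin proteoglycan, changed by 1.08 (SE 0.14, adjusted p = 0.000617 in edgeR), with mutant means of 79.5 ± 13.9 and 169.8 ± 17.8 CPM (SD, n = 3 each) over control means of 36.8 ± 8.25 and 82.02 ± 20.98 CPM.

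The egg-1 and egg-2 genes encode oocyte surface proteins with LDL-receptor repeats that sperm entry needs. For egg-1 (chromosome III, 5728180 to 5730159) the U13A-pair libraries held 6.74, 5.59 and 3.68 CPM in controls and 15.2, 12.1 and 16.2 CPM in mutants, and the U18A-pair libraries 12.2, 12.9 and 21.2 CPM in controls and 35.3, 34.02 and 37.2 CPM in mutants. The groups did not overlap in either pair, and the common change was a log2 change of 1.30 (SE 0.16, edgeR adjusted p = 0.000372). For egg-2 (chromosome III, 7058527 to 7060583) the common change was 1.00 (SE 0.15, edgeR adjusted p = 0.00111), again without overlap. The span of egg-1 overlaps a gene on the other strand, B0244.9, and strand-aware counting is not stated in the sources used here. The egg-3 gene, a pseudophosphatase of the oocyte cortex, was called in the common test (0.75, edgeR adjusted p = 0.00119) but in the U13A pair alone reached an adjusted p of 0.0638. The same held for chs-1, the chitin synthase of the shell, at 0.98 in common (edgeR adjusted p = 0.00153) and an adjusted p of 0.137 in the U13A pair.

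Yolk uptake and RNA control were in the same group. For rme-2 (chromosome IV, 5470026 to 5473174), the yolk receptor of oocytes, in the U13A pair, its normalised counts in the 3 control libraries were 17.9, 15.97 and 12.1 CPM, and in the 3 mutant libraries 41.6, 29.3 and 41.8 CPM. Those of the U18A pair held 44.1, 49.1 and 59.7 CPM in the controls and 108, 96.5 and 93.5 CPM in the mutants. The 6 mutant libraries lay above the controls of their own pair, with a log2 change of 1.11 (SE 0.12, edgeR adjusted p = 0.000174). The oma-1 and oma-2 genes encode CCCH zinc-finger proteins that hold back translation until the oocyte matures. For oma-2 (chromosome V, 8029439 to 8031214) the U13A pair held 1.44, 0.324 and 0.736 CPM in controls and 2.84, 2.64 and 3.64 CPM in mutants, and the U18A pair 3.80, 3.66 and 5.49 and 8.49, 8.43 and 9.84 CPM. The common change was 1.29 (SE 0.21, edgeR adjusted p = 0.00145), and that of oma-1 was 0.86 (SE 0.12, adjusted p = 0.000612). The list also holds 2 Pumilio-family RNA-binding proteins of oocytes. Of these puf-5 changed by 0.77 and puf-11 by 0.72 (edgeR adjusted p = 9.3e-05 and 9.3e-05), and both were called in each pair.

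The list members not called numbered 5. They were the eggshell barrier genes perm-2 (0.34, edgeR adjusted p = 0.319) and perm-4 (0.27, 0.197), the katanin subunit mei-1 (0.16, 0.258), and the maternal RNA-binding genes spn-4 (-0.07) and pos-1 (-0.06). The other katanin subunit, mei-2, was called at 0.49 in common and not in the U13A pair (adjusted p = 0.363). The summed level of the 18 was 661 to 1077 CPM in the U13A controls and 904 to 1309 CPM in the U13A mutants, which overlap. The U18A pair gave 1159 to 1376 CPM against 1909 to 2213 CPM, which do not. These sums were dominated by perm-2 and perm-4, the highest of the list in every library.

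A wider set of 33 eggshell genes, listed after values had been seen, is described here without a test. Of it 17 were called higher and 1 lower, mbk-2 at -0.21, a kinase of the oocyte-to-embryo transition, and 11 were called in both pairs too. Of all genes 3.07% were higher, 4.06% lower and 1.13% called with 1 sign in all 3 tests. The members included 2 enzymes at the entry of the amino sugar pathway that feeds chitin synthesis. Footprints of gfat-2 (chromosome IV, 11410228 to 11413002), a glutamine-fructose-6-phosphate aminotransferase, were 26.1, 24.8 and 22.1 CPM in U13A controls, 43.9, 43.1 and 49.7 CPM in U13A mutants, 43.02, 56.6 and 57.4 CPM in U18A controls and 103, 92.8 and 98.1 CPM in U18A mutants. The groups were apart in both pairs, by nearly the same amount, 0.90 for U13A against 0.89 for U18A, and the common change was a log2 change of 0.90 (SE 0.0782, edgeR adjusted p = 1.95e-05). An acetyltransferase of the pathway, gna-2, changed by 0.93 (edgeR adjusted p = 0.000341), gfat-1 by 0.45 (0.00248), and pod-2, the acetyl-CoA carboxylase of the permeability barrier, by 0.52 (0.00313). The related gna-1 of the same set was at -0.21 and was not called (edgeR adjusted p = 0.275). Among the family of 10 PUF genes tested, likewise listed after values had been seen, 5 were higher (puf-3, puf-5, puf-6, puf-7 and puf-11) and 1 was lower (puf-9, -0.21), against the same 3.07% and 4.06%. The closely related fbf-1 and fbf-2, which act in germline stem cells, had log2 changes of -0.18 and -0.10 and were not called. Counts of puf-6 and puf-7 were close in every library, as were those of egg-4 and egg-5 in the eggshell set. Reads of such near-equal genes may not be separable, so the 5 and the 17 may not all be separate measurements.

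The 6 yolk protein genes vit-1 to vit-6 are expressed in the adult intestine and their products taken up by oocytes. All 6 were called higher in the common test (log2 change 0.67 for vit-6 to 0.78 for vit-5, edgeR adjusted p = 0.0209 and 0.00455). Of all genes 3.07% were called higher in common. All 6 were called in the U18A pair alone (4.06% of all genes were higher there), and none in the U13A pair alone (edgeR adjusted p = 0.142 to 0.465). For vit-2 the U18A controls held 4372, 4218 and 4994 CPM and the U18A mutants 10069.5, 9489 and 8415 CPM, with no overlap. The U13A controls held 9528, 7283 and 5003 CPM and the U13A mutants 10216, 8417 and 11368 CPM, and here control library A lay above mutant library B. The difference between the pairs was not called for any yolk gene. The counts of vit-3, vit-4 and vit-5 stayed within 0.193 log2 of one another in every library, and since these genes are near copies their reads may not be separable. The call of vit-6 was lost without library A of the U18A control (edgeR adjusted p = 0.0548) and without its library B (0.0559).

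**Figure D2:**
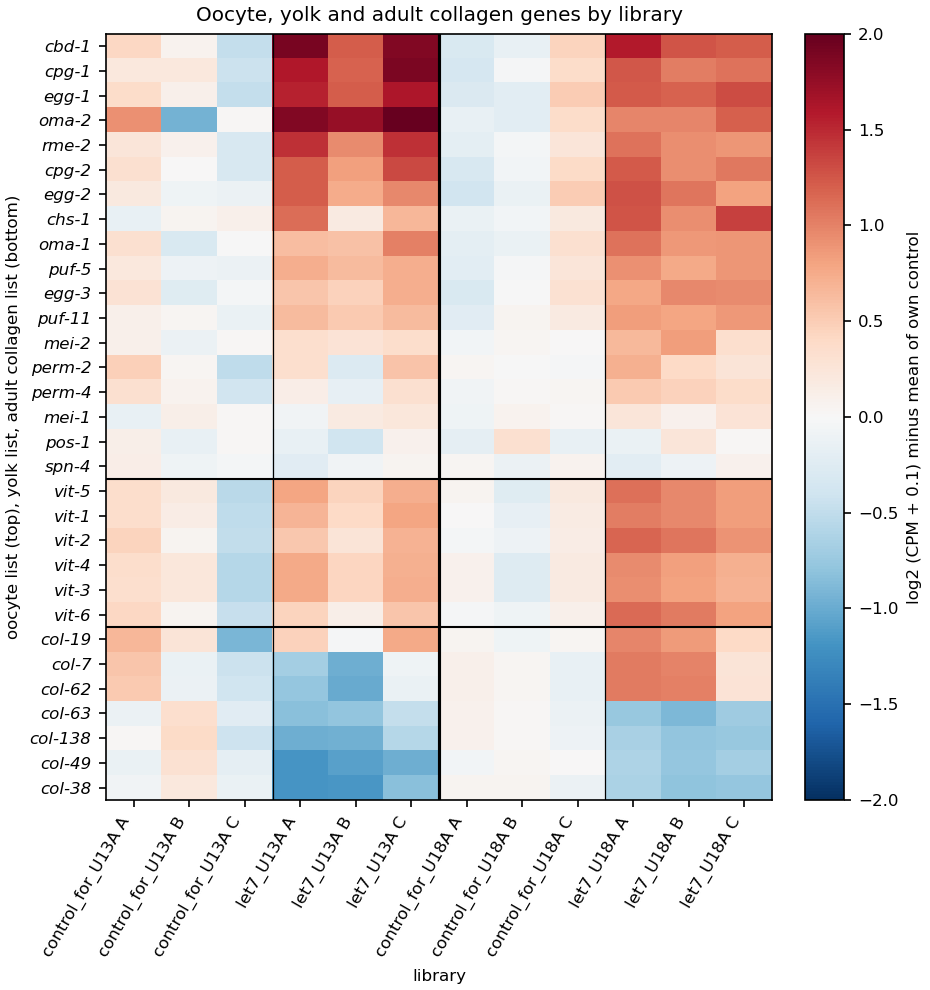
Rows are the 18 oocyte, 6 yolk and 7 adult collagen genes and columns the 12 libraries, with colour giving log2 of CPM plus 0.1 minus the mean of the same pair's controls, red above and blue below. The oocyte rows from cbd-1 to puf-11 are red in the mutant columns of both pairs, the yolk rows more deeply so in the U18A mutant, and the last 4 rows, col-63 to col-38, are blue in both.

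Other germline and tissue genes were measured beside these. Of a list of 16 general germline genes, none was called in the common test by edgeR or DESeq2 (1 at an unadjusted p under 0.05). The median was -0.01 in common, -0.15 for U13A and 0.09 for U18A, and 7 of the 16 had 1 sign in both pairs. The list summed to 3689.96 to 4257 CPM in U13A controls and 3470.2 to 3918 CPM in U13A mutants. In the U18A pair it summed to 3014 to 3185 CPM in controls and 3239.8 to 3477 CPM in mutants. Of 10 sperm genes 2 were lower, where 4.06% of all genes were. They were spe-44, a transcription factor of spermatogenesis, at -0.62 (edgeR adjusted p = 0.00435), and the ferlin gene fer-1 at -0.33 (0.0227). The spe-44 libraries held 7.46, 8.35 and 10.4 CPM in U13A controls, 4.78, 6.16 and 6.17 in U13A mutants, 5.53, 5.51 and 4.84 in U18A controls and 2.94, 3.11 and 4.003 in U18A mutants, without overlap in either pair. The fer-1 call was lost when any of 4 libraries was left out (U13A control C, U13A mutant A, U18A control A or B, adjusted p = 0.0507 to 0.0554). The sperm list summed to 427 to 449.5 CPM in U13A controls, 397 to 432 CPM in U13A mutants, 419.7 to 441 CPM in U18A controls and 423 to 435 CPM in U18A mutants. The 31 major sperm protein genes (msp) gave no call with either tool and 6 unadjusted p under 0.05, and 29 of them were negative in both pairs. Their medians were -0.12 for U13A and -0.15 for U18A, where those of all genes were -0.0034 and -0.0048. Whether reads of the msp genes can be told apart was not checked, so the 29 may not be separate measurements. EdgeR called no member of the body-wall muscle list (10 tested), the neuron list (9), the pharynx list (7) or the intestine list (10) in the common test, with 0, 0, 1 and 3 at an unadjusted p under 0.05. DESeq2 called 1 of these 36, the intestinal actin gene act-5. The part that germline cell number, age or tissue content may have in the oocyte and yolk values was not tested.

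Shared rises outside the oocyte included stress and metabolic genes. One of them was gpdh-1 (chromosome I, 14075837 to 14078211), a glycerol-3-phosphate dehydrogenase that makes glycerol under osmotic stress. In the U13A pair, its normalised counts in the 3 control libraries were 10.5, 10.1 and 7.72 CPM, and in the 3 mutant libraries 30.7, 21.6 and 27.4 CPM. Those of the U18A pair held 16.9, 17.2 and 21.9 CPM in the controls and 39.3, 39.9 and 33.2 CPM in the mutants. All mutants lay above all controls of their pair, and the common change was a log2 change of 1.22 (SE 0.12, edgeR adjusted p = 9.3e-05). Its relative gpdh-2 was at 0.12 and not called. The gpdh-1 span overlaps gadr-6 on the other strand. Of the 9 tested genes of the epidermal antimicrobial peptide cluster nlp-24 to nlp-34, listed after values had been seen, nlp-28 (0.97, edgeR adjusted p = 0.000404) and nlp-29 (0.89, 0.00519) were higher in both pairs, while nlp-33 (-0.56) was lower in both and nlp-34 (-0.63) lower in common. Of all genes 3.07% were higher and 4.06% lower in common. The glutamine synthetase gene gln-5 rose by 0.89 and the transthyretin-like ttr-42 by 1.01 (edgeR adjusted p = 0.000563 and 0.00217). The neighbours R04D3.2 and R04D3.3, on chromosome X at 13285121 to 13286633 and 13288917 to 13290631, both on the minus strand, rose by 1.07 and 1.36. Y39E4B.5 and C27C12.3 complete the 15, at 1.06 and 0.93.

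The largest shared fall was ZC374.2 (chromosome X, 10034607 to 10047425, minus strand), an X-linked gene at 12.6, 10.2 and 9.56 CPM in U13A controls against 0.224, 0.249 and 0.231 CPM in U13A mutants, and 18.04, 14.999 and 12.9 against 0.226, 0.456 and 0.629 CPM in the U18A pair. The common log2 change was -5.20 (SE 0.18, edgeR adjusted p = 4.16e-11).

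Cuticle collagens made up 4 of the 15 largest shared falls. The worm's exoskeleton is built from collagens that the epidermis secretes anew at each molt, with an adult set replacing the larval one at the last molt. Of 131 tested genes named col, 32 were called lower in common and 1 higher (col-8, 1.03, edgeR adjusted p = 0.0454), against 4.06% lower among all genes. The class median was -0.30 in the U18A pair and -0.12 in the U13A pair. Tested by pair in edgeR, all 20 called with U13A were lower (2.49% of all genes were). With U18A 56 were called lower (6.71% of all genes) and 26 higher (4.06%), so the class moved both ways in that pair. Of the 7 genes of the adult collagen list, 4 were lower, each called in both pairs (col-138, col-63, col-49 and col-38).

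For col-38 (chromosome II, 8568035 to 8569088), in the U13A pair, its normalised counts in the 3 control libraries were 209.9, 254 and 200.1 CPM, and in the 3 mutant libraries 97.2, 98.2 and 123 CPM. Those of the U18A pair held 1035, 1035 and 924 CPM in the controls and 642, 569 and 585 CPM in the mutants. Both pairs were free of overlap, with a log2 change of -0.90 (SE 0.0894, edgeR adjusted p = 7.17e-05). The col-49 gene changed by -0.89, col-63 by -0.75 and col-138 by -0.79 (adjusted p = 9.3e-05, 0.000237 and 0.000864 in edgeR). The other 3 of the list were not called in common. Footprints of col-19, the adult collagen whose reporter is maIs105, were 405, 369 and 403 CPM in U18A controls and 768, 709 and 515 CPM in U18A mutants (log2 change 0.75), and 306, 230.1 and 103 against 265, 191 and 326 CPM in the U13A pair (0.28). The common value was 0.53 (edgeR adjusted p = 0.252). Those of col-7 and col-62, which stayed within 0.116 log2 of each other in every library and may share reads, were at -0.59 and -0.65 in the U13A pair and 0.79 and 0.80 in the U18A pair, where both were called, as was col-19. The difference between the pairs was not called for any gene of the list.

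The collagen rol-1 (chromosome II, 12172573 to 12176069), mutations of which make worms roll, was at 153, 190.4 and 123 CPM in U13A controls and 67.3, 69.4 and 101 CPM in U13A mutants, and at 566, 580.2 and 512 against 290.1, 285 and 339 CPM in the U18A pair. No library crossed, and the common change was a log2 change of -0.91 (SE 0.12, edgeR adjusted p = 0.000372). Of 19 tested collagens named for body shape, listed after values had been seen, 4 were lower (rol-1, dpy-4, dpy-5 and dpy-13), none was higher, and 11 changed differently between the pairs. Of all genes 4.06% were lower, 3.07% higher and 5.58% changed differently. Among the numbered collagens col-73 (chromosome II, 4872098 to 4873129) and col-71 (chromosome II, 3500077 to 3502570) were at -0.87 and -0.78 (edgeR adjusted p = 0.000552 and 0.000404). For col-60 and col-120 the fall was called in all 3 tests and was also larger in the U13A pair, at -1.77 against -0.46 and at -2.23 against -0.45 (adjusted p of the difference 0.000194 and 2.13e-05 in edgeR).

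**Figure D3:**
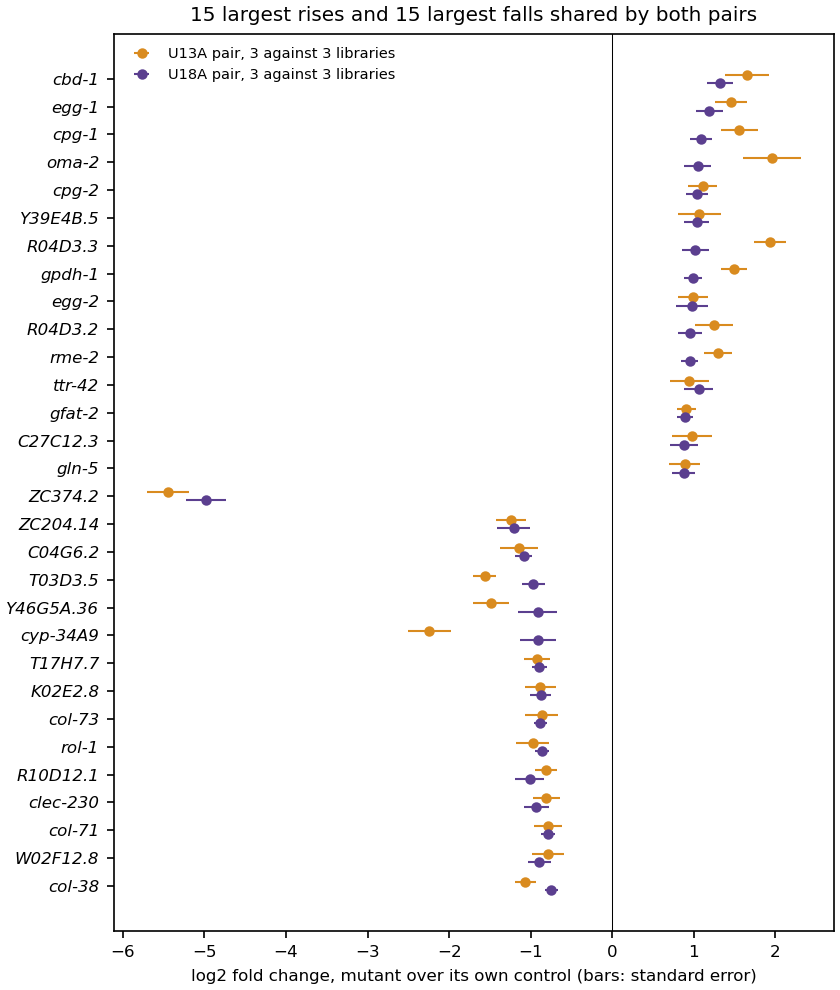
Horizontal positions are log2 fold changes of the 15 largest shared rises and 15 largest shared falls, orange for the U13A pair and purple for the U18A pair (3 against 3 libraries each), with bars of 1 standard error. The 15 rises lie right of 0 and the 15 falls left of it in both pairs, ranked by the smaller of the 2 changes.

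Molting genes, like many collagens, are known to cycle with the molt, and their values are given beside the collagens. Of 10 molting genes, which include mlt-10, the zona pellucida matrix genes noah-1 and noah-2 and the fibrillin-like fbn-1, none was called in the common test by edgeR (2 at an unadjusted p under 0.05, mlt-8 and mlt-10, both called lower by DESeq2). Within pairs 9 were lower in the U18A mutant (6.71% of all genes were), and 2, noah-1 and fbn-1, were higher in the U13A mutant (3.01%). The change differed between pairs for 9 of the 10 (5.58% of all genes). For fbn-1 it was 2.299 for U13A and -1.36 for U18A. The list's summed level was 246 to 319 CPM in U13A controls and 348 to 539 CPM in U13A mutants, and 989.8 to 1455 CPM in U18A controls and 532 to 548 CPM in U18A mutants. What part the animals' exact time in the molting cycle had in the collagen falls was not tested.

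Gene classes were formed from the letters before the hyphen in each name, and 106 classes had at least 10 tested members. Classes negative in both pairs were ranked by the median nearer to 0, and the first 6 were nas, grd, his, dct, oac and abu. Classes such as grl, ptr and dpy had lower medians than these in the U18A pair alone. The astacin metalloproteases (nas), secreted enzymes some of which shed the old cuticle, had 27 tested members, 8 of them lower and none higher, where 4.06% of all genes were lower, which is also the background of the lower counts in grd, abu, oac and dct. Their medians were -0.32 and -0.41 in the U13A and U18A pairs, and nas-7 and nas-23 were called in both. That count of 8 was 4 without library B of the U13A mutant, and 5 without library A of the U13A control, A of the U13A mutant, A of the U18A control or B of the U18A mutant. The grd genes, relatives of hedgehog, had 2 of 12 lower (grd-2 and grd-6). The abu class had 2 of 14 lower, abu-12 at -0.78 and abu-13 at -0.74, with medians of -0.99 for U13A and -0.16 for U18A. Of the 24 tested oac acyltransferases oac-20 was higher (0.62), where 3.07% of all genes were, and 5 were lower. The dct class, named for genes controlled by DAF-16, had 2 of 10 lower, dct-7 at -1.41 and dct-5 at -0.38.

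The histone genes (his) were the class with the largest share called lower among the 106, followed by ptr, the patched-related genes, at 33.3% (7 of 21). Histone mRNAs are made chiefly in dividing cells, in which new DNA is packaged. Of 72 tested, 31 (43.1%) were lower in common and none higher, against 4.06% and 3.07% of all genes. Of the 72, 66 were negative in both pairs. Medians were -0.30 for U13A and -0.27 for U18A. Tested by pair, 1 was called lower with U13A, where 2.49% of all genes were, and 26 with U18A, where 6.71% were. The calls thus came mainly from the U18A pair, while the medians were of like size in both pairs. The change differed between the pairs for none of the 72, where 5.58% of all genes changed differently. The replicated histone genes are near copies, and 44 of the 72 were within 0.2 log2 of another his gene in all 12 libraries, so these 31 are not 31 separate measurements. The linker histone gene his-24, which is outside those 44, was the one called in each pair, at -0.49 for U13A against -0.72 for U18A. Its libraries held 74.7, 70.4 and 56.3 CPM in U13A controls, 42.8, 45.8 and 55.5 CPM in U13A mutants, 72.9, 81.4 and 49.5 CPM in U18A controls and 35.1, 44.04 and 44.1 CPM in U18A mutants, without overlap in either pair. The common change was a log2 change of -0.60 (SE 0.13, edgeR adjusted p = 0.0108). The count of 31 was 15 to 17 without library A of the U13A control, A of the U13A mutant, B of the U18A control, or A or B of the U18A mutant.

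**Figure D4:**
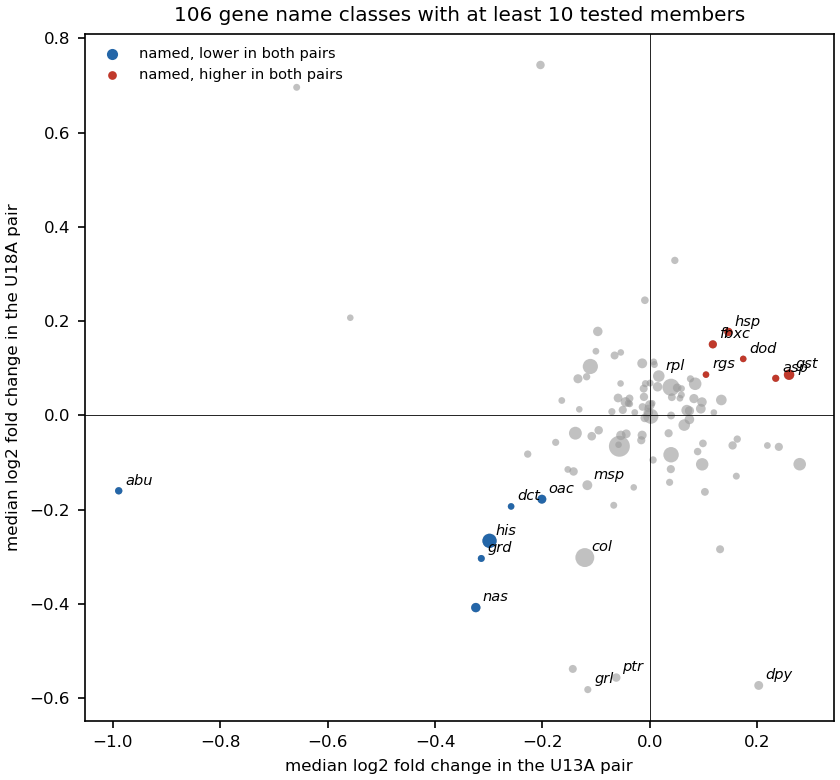
Each point is 1 of 106 gene name classes, placed by its median log2 fold change in the U13A pair (horizontal) and the U18A pair (vertical), with point area growing with the number of tested members. The 6 named classes in blue lie below 0 in both pairs and the 6 in red above it, with col at -0.12 and -0.30.

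Classes positive in both pairs were ranked the same way, and the first 6 were hsp, dod, fbxc, rgs, gst and asp. Classes such as fipr, nspb and pgp had higher medians than these in the U18A pair alone. The glutathione S-transferases (gst) had 4 of 35 higher, where 3.07% of all genes were, among them gst-24 at 0.91, which was called in each pair, and gst-7, gst-38 and gst-39 at 0.29 to 0.39. The heat shock class had 1 of 20 called higher in common, hsp-43 at 0.74, a share near that of all genes. Tested by pair, 1 was called higher with U13A (3.01% of all genes were) and 7 with U18A (4.06%).

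**Figure D5:**
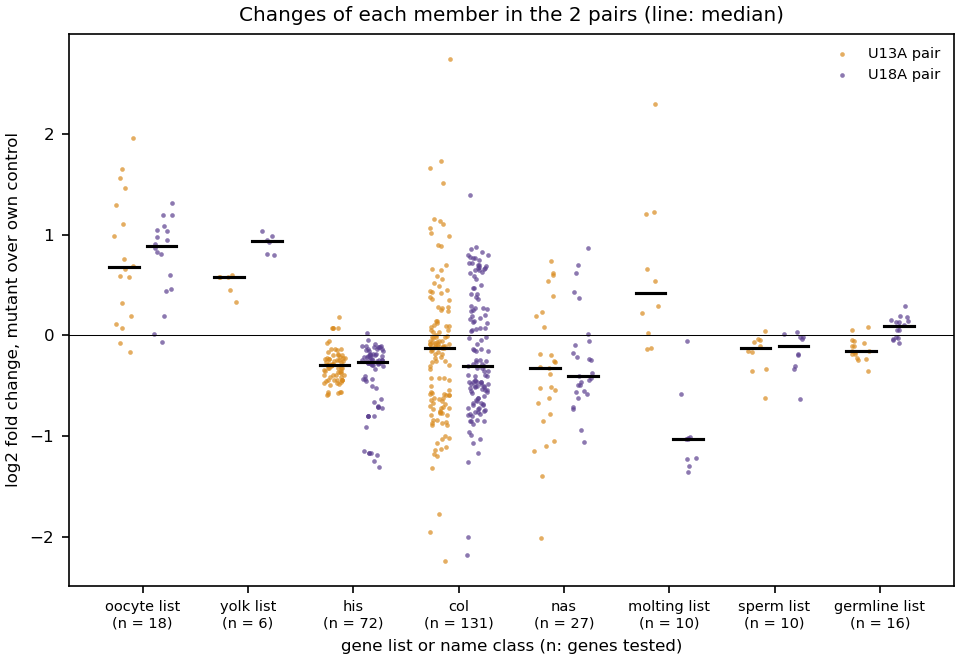
Each point is 1 gene of a list or name class, placed by its log2 fold change in the U13A pair (orange) or U18A pair (purple), with black lines at the medians. The oocyte medians are 0.67 and 0.89, the his medians are -0.30 and -0.27, and the molting medians lie on opposite sides of 0 at 0.42 and -1.03.

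Among let-7's own targets the common test called lin-41 alone. Of 8 genes of the target list 7 were tested. The lin-41 libraries held 45.4, 41.3 and 43.2 CPM in U13A controls, 60.2, 51.6 and 48.5 CPM in U13A mutants, 76.1, 87.2 and 94.1 CPM in U18A controls and 132, 118 and 126 CPM in U18A mutants. The mutant libraries lay above the controls in both pairs, and the common change was a log2 change of 0.43 (SE 0.0757, edgeR adjusted p = 0.00286). By pair it was 0.30 (adjusted p = 0.166) for U13A and 0.54 (adjusted p = 0.000781) for U18A, both from edgeR, and the difference between pairs was not called (adjusted p = 0.42). The U13A mutant also carries ma480, a change at lin-41 itself that its control lacks. In that pair the parts of let-7 and of ma480 in the lin-41 value cannot be told apart. The oocyte list was higher in both mutants too, with medians of 0.67 for U13A and 0.89 for U18A. What part oocyte content had in the lin-41 values of either pair was not tested. The zinc-finger gene hbl-1 and the hormone receptor gene daf-12 were not called in common (0.16 and 0.60). Both were higher in the U13A mutant, at 1.00 and 1.51, and at -0.71 and -0.27 in the U18A mutant. Their changes differed between pairs (edgeR adjusted p = 0.0191 and 0.000123).

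Of 16 heterochronic genes, which set the timing of larval cell fates, 15 were tested. Higher was 1 (lin-41) and lower were 2, against 3.07% and 4.06% of all genes. The casein kinase gene kin-20 was at -0.24 (SE 0.0555, edgeR adjusted p = 0.0148) and -0.25 for U13A against -0.24 for U18A. The Period relative lin-42, which cycles with the molt, was at -0.60 (adjusted p = 0.0407), but its change was -0.05 for U13A against -1.01 for U18A and these differed (adjusted p = 0.0102). Its common call was lost in 9 of the 12 fits that each left out 1 library (edgeR adjusted p = 0.0565 to 0.115 in those). Of the 3 tested genes that LIN-41 represses, lin-29 (-0.04), mab-10 (-0.43) and mab-3 (-0.58), none was called by edgeR or DESeq2 (2 at an unadjusted p under 0.05, mab-10 and mab-3). None of the 10 genes of the microRNA machinery list was called by either tool, with alg-1 and alg-2 at an unadjusted p under 0.05. Of the 8 tested seam and epidermis genes edgeR called none in common, 3 had an unadjusted p under 0.05, and DESeq2 called 1, grd-3. List members left untested were dmd-3, ceh-22, ceh-16, rnt-1 and bro-1, which had 19 to 72 counts over all libraries, and lss-4, lep-2 and unc-17, for which no row of that name was found.

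The remaining large falls of the shared set were genes of less known function. T17H7.7 (chromosome III, 755262 to 758081) was at -0.90 with changes of -0.92 for U13A against -0.90 for U18A. C04G6.2 was at -1.10, ZC204.14 at -1.22, T03D3.5 at -1.27, Y46G5A.36 at -1.22, K02E2.8 at -0.87, R10D12.1 at -0.91 and W02F12.8 at -0.83 on the log2 scale. K02E2.8 overlaps grd-11 on the other strand. The cytochrome P450 gene cyp-34A9 was at -1.70 (-2.24 for U13A against -0.91 for U18A), and the C-type lectin gene clec-230 at -0.87. Over the whole shared set, the 69 higher genes had medians of 0.78 for U13A and 0.73 for U18A, and the 85 lower ones -0.79 and -0.69. The change was the larger in the U13A pair for 51 of the 69 and 53 of the 85. Entry to the set required a call in each pair, and its smallest absolute change was 0.41 for U13A and 0.26 for U18A. These medians and counts are shaped by that rule and do not compare the strength of the 2 mutants. Of the 154, 36 overlap another gene on the opposite strand.

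Of the 970 common calls, 159 were called in the U13A pair alone, 452 in the U18A pair alone and 205 in neither. By their own tests the pairs had 748 (5.5%) and 1464 (10.8%) called genes. Opposite changes were also frequent. Of the 257 genes (1.89%) called in each pair by its own test 102 had opposite signs, and changes differed between pairs for 759 genes (5.58%), among them 65 of the common calls (0.478% of all genes) and 5 of the 154 (0.0368%). Of genes with no overlap of libraries in either pair, 690 (5.07%) moved the same way and 457 (3.36%) opposite ways.

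The largest common changes called in 1 pair alone were T02B5.3, F57A10.2, srw-85, T07G12.5 and fipr-19. T02B5.3, whose current name is cest-1.2, a carboxylesterase relative, fell from 19.97, 16.1 and 20.3 CPM in the U13A controls to 0.523, 0.641 and 0.462 CPM in the mutants, and was at 0.577, 0.904 and 0.806 against 0.226, 0.683 and 0.572 CPM in the U18A pair. F57A10.2 had 2.29, 2.68 and 1.99 CPM in the U13A controls and 0 in all 3 mutants, which is at least 45.2-fold lower when set against 3 counts over the group, and the U18A-pair libraries lay between 0.0481 and 0.286 CPM. The chemoreceptor-family gene srw-85 was at 0 in all 3 U13A controls and at 2.09, 2.49 and 2.31 CPM in the mutants, at least 26.8-fold higher against the same floor. In the U18A pair srw-85 was at most 0.113 CPM. The common call of F57A10.2 was lost without U13A control B, U13A mutant A or U13A mutant B (edgeR adjusted p = 0.0505 to 0.0603). F57A10.2 and srw-85 had opposite signs in the pairs, as did dhs-26. The last of the 4 common calls without a shared sign, fbxb-14, had 0 counts in all 6 U13A-pair libraries. T07G12.5 (-3.02 for U13A against -1.14 for U18A) was called in the U13A pair, and fipr-19 (-1.71 for U13A against -1.89 for U18A) in the U18A pair.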

How the data were processed

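Ribosome footprints of 12 libraries were counted per gene by the authors, who deposited 2 tables of raw counts (1 per strain pair), with no normalization. Per the submitters' processing notes, cutadapt 1.9, Bowtie2 2.3.4.3 and WBcel235 were used; the counter, annotation, strand and multimapping settings are not given in the sources used here. The 46711 rows present in both tables were joined by name, which leaves out 11 rows of the U18A table. Of the joined rows 28056 were 0 in every library.

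Groups follow the labels. In edgeR 4.0.16 (R 4.3.3), 13597 rows passed filterByExpr. CPM used TMM factors. The quasi-likelihood test was robust, with pair and status (mutant or control) as terms; the same rows were tested within pairs, and the difference between pairs in a model of 4 group means. Benjamini-Hochberg adjusted p-values were computed over all 13597, and calls are at 0.05. DESeq2 1.42.0 and the alternatives of the closing section were also run. Standard errors are the log2 change over the root of F. The Ensembl annotation of WBcel235 matched 97.8% of the rows and gave the coordinates.

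Named are the 15 largest rises and 15 largest falls called in the common and both within-pair tests with 1 sign, no overlap, and in each pair 50 or more counts on average in the higher group, ranked by the smaller change; members of 15 lists (154 entries); up to 6 name classes per direction, ranked by the median nearer to 0 of the 2 pairs; and the 5 largest common changes called in 1 pair. Other genes and lists are said to be chosen after values were seen or were picked to illustrate their class. Members and lists were chosen with earlier results of these data known. The main fits did not pair libraries by letter. Correlations of same-letter deviations were -0.29 to 0.0075 in the U13A pair, against -0.306 to 0.325 for unlike letters. In the U18A pair they were 0.0056 to 0.146, against -0.144 to 0.0237, with A and C above every unlike-letter value. Pairing by letter is thus not excluded in the U18A pair, and a fit with a replicate block is given in the closing section. Replicates differed by more than counting noise (chi-square per gene 5.47 to 36.7). Total counts of 8405704 to 44950649 set the precision, with 3 counts equal to 0.0662 to 0.361 CPM, covering counting error only. 12 tested rows join 2 names.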

Additional observations from a re-analysis of the deposited data

Results flagged for a closer look

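Of all genes tested, 759 changed differently between the pairs by edgeR's test of the difference itself (adjusted p under 0.05). Those given here are the 23 that are list members or were named by the rule for single genes, and each value is the U13A-pair log2 change minus the U18A-pair log2 change. The molting genes were fbn-1 at 3.66, noah-2 at 2.52, noah-1 at 2.44, mlt-11 at 1.87, ptr-4 at 1.30, mlt-9 at 1.26, nas-37 at 1.13, mlt-10 at 1.05 and mlt-8 at 0.89. The timing genes were daf-12 at 1.78, hbl-1 at 1.72, blmp-1 at 1.12, lin-42 at 0.96 and dre-1 at 0.43. The seam and epidermis genes were aff-1 at 1.81, nhr-73 at 1.63 and eff-1 at 1.14. In other tissue lists spl-1 was at 0.45, ifb-2 at -0.54 and pgl-3 at -0.42. T02B5.3 was at -4.47. For F57A10.2 (-9.11) and srw-85 (9.33) a U13A-pair group was at 0 counts, so these fitted values give the direction and not the size.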

How the results depend on the processing

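Of the 970 common calls 87 were at least 1 on the log2 scale. The 970 became 1462 in a model of 4 group means, 92 without the pair term, 464 with a replicate block (library letter within pair; 46.98% of those were higher, as against 43.1%), 503 with libraries thinned to the smallest total, 748 in the U13A pair alone and 1464 in the U18A pair alone. Without any 1 library they ran from 633 to 1019. The calls of 1 sign in both pairs (966) became 92 without the pair term, 461 with the replicate block and 499 when thinned, and 629 to 1013 without any 1 library. The 154 called in each pair became 47 without the pair term, 88 with the replicate block (84 of them shared with the 154) and 78 when thinned, and 59 to 195 without any 1 library. Scaling, count filter, DESeq2 (179) and non-robust fits kept these 3 counts within 1.5 times. For the pair without its partner, F57A10.2 was at 0.63 and srw-85 at -0.87 in the U18A pair. No named gene changed sign in the fits of both pairs. Without the pair term no oocyte gene was called. DESeq2 lost F57A10.2 (adjusted p = 0.0978) and srw-85 (0.0862). Thinning lost Y39E4B.5, C27C12.3, mei-2, chs-1, fer-1, lin-42 and spe-44. The replicate block also lost F57A10.2, fer-1, lin-42, vit-6 and kin-20. The cause of these shifts was not tested. Genes with few counts are limited by depth.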
